A study of Caenorhabditis nigoni and Caenorhabditis briggsae with 14 samples.

Results

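Sterile males of the strain ZZY10330 were set against males of JU1421, the C. nigoni strain that supplies most of their genome. All 6 male libraries of these strains were used, out of 14 libraries in the series, with all 23439 genes and all 920 repeat families listed in their count files. Messenger RNA of whole worms was sequenced as paired reads of 150 nt, from 300 young adult males and 300 ng of total RNA per library. ZZY10330 males carried a C. nigoni genome in which the X chromosome from 16.4 Mb to its end came from C. briggsae. They were sterile, were sired by JU1421 males on fertile females with the same introgression, and were picked by eye for cbr-myo-2::GFP, a green fluorescent marker under a pharyngeal myosin promoter. ZZY10307 males, bred and picked in the same way and also sterile, carried another stretch of C. briggsae X, between 4.5 and 12.2 Mb. AF16 males were wild-type C. briggsae and JU1421 males wild-type C. nigoni, both fertile and without a stated marker. Each of the 4 strains had 3 male libraries, and JU1421 and AF16 had 1 female library each. How many independent lines of ZZY10330 were used, and whether the 3 libraries came from separate cultures, the labels do not say. The p-values therefore take in spread among libraries and nothing wider, and those of edgeR pool it over the 12 male libraries.

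C. nigoni has separate males and females, while C. briggsae has males and self-fertile hermaphrodites, and crosses between them give hybrids with reduced fertility, males more so than females. In nematodes of this genus the adult male gonad makes sperm continuously, and transcripts of sperm formation are a large part of what sets a male transcriptome apart from a female one. Males have a single X chromosome, females and hermaphrodites a pair, and its genes are poorly expressed in the male germ line. Repeat families are groups of similar sequences scattered over a genome, many of them transposons or their remains, and in worms small RNA pathways keep many of them silent in germ cells.

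Gene counts summed to 3443954, 3785106 and 2372653 in ZZY10330 replicates 1, 2 and 3, against 2649852, 2919588 and 2757967 in the JU1421 libraries. ZZY10330 libraries were less alike than those of the other strains. The Pearson correlation of log2 values was 0.824 to 0.885 between pairs of ZZY10330 libraries and 0.916 to 0.920 between pairs of JU1421 libraries. Replicate 2 was in both of the less similar ZZY10330 pairs, so main counts are also given without it. Over 9263 genes the median SD of log2 values was 0.424 in ZZY10330, 0.275 in ZZY10307, 0.312 in AF16 and 0.328 in JU1421. The edgeR tests share their estimate of spread over the strains, so they may understate that of ZZY10330. Genes are known here only by WormBase identifier, with no name or position, so none is placed inside or outside the introgressed segment. The sources used here do not name the genome on which reads were counted, and a gene's count in C. nigoni and in C. briggsae sequence may differ through read assignment, which was not tested. In whole worms, fewer cells of a kind and less RNA per cell cannot be told apart.

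Many genes differed between sterile ZZY10330 and fertile JU1421 males, and those that fell held a large share of male genes. Of 13289 genes with enough counts to test, 3803 passed at an adjusted p below 0.05 in the quasi-likelihood test of edgeR, 28.6% of all tested. Higher in ZZY10330 were 1670 genes (12.6%) and lower were 2133 (16.1%). Without ZZY10330 replicate 2 these were 1440 and 1764, and 2977 of the 3202 genes called then had been called in the same direction with it. Changes of 2-fold or more made up 1382 of the higher and 1602 of the lower genes, and changes of 4-fold or more 482 and 410. The 3 ZZY10330 and 3 JU1421 values did not overlap in 3645 of the 3803 called genes, against 41.8% of all tested genes. Scaling the libraries by total counts, in place of the trimmed mean (TMM) factors of edgeR used here, moved the median log2 fold change of all genes by 0.22, from -0.03 to 0.20. The calls were then 2234 higher and 1570 lower, 58.7% higher in place of 43.9%. With only the 6 libraries of these strains in the fit, 1569 were higher and 1453 lower, so which direction held more genes depends on these choices.

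To sort genes by sex, males of AF16 were set beside the AF16 female library, since AF16 enters neither side of the comparison. Levels are given as CPM, each male library's counts being brought to the same total after TMM scaling. Printed levels of the female libraries are scaled by total gene counts alone, so they are not on quite the same scale. Genes that reached 5 CPM in the higher sex and a ratio of 4 between the sexes were called male-biased, 1739 in all, or female-biased, 1073 in all. The sorting rests on 1 female library, which has no replicate. Its label says female, but C. briggsae has self-fertile hermaphrodites beside its males, so the library may hold RNA of sperm formation. Genes expressed in both would then be left out of the male-biased list, which was not tested. Of 1721 male-biased genes tested, 955 fell in ZZY10330, 117 rose and 649 did not pass. Their median log2 fold change was -1.19, and that of all 13289 genes -0.03. Without ZZY10330 replicate 2, 846 fell and 98 rose, and the median was -1.02. Male-biased genes made up 44.8% of the genes that fell and 7.01% of those that rose, against 12.95% of those tested. A fall of 2-fold or more was seen in 848 of them and one of 4-fold or more in 190. Taken library by library against the JU1421 mean, the median male-biased gene stood at log2 -0.94 in ZZY10330 replicate 1, at -1.49 in replicate 2 and at -0.98 in replicate 3. The 3 JU1421 libraries stood at -0.07, 0.01 and 0.08 on this scale, so all ZZY10330 libraries lay below them. ZZY10307 libraries stood at -1.31, -1.52 and -1.40, a range that takes in ZZY10330 replicate 2.

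Male-biased genes took 20.04%, 16.4% and 20.1% of all gene counts in the 3 ZZY10330 libraries, against 30.2%, 32.2% and 33.5% in JU1421. The groups did not overlap, and the difference was -13.1 percentage points (exact two-sided permutation p = 0.1, the smallest that 3 against 3 libraries allow; 0.15 adjusted over the 12 values tested in this way). ZZY10307 males, at 12.3%, 11.1% and 11.8%, lay below every ZZY10330 library on this scale, and AF16 males, at 30.5%, 30.6% and 31.6%, lay within the JU1421 range. In the JU1421 female library the same genes took 0.648% of counts, far below the share in every ZZY10330 library. The AF16 female library, at 2.23%, helped to choose these genes, as did the AF16 males. The AF16 shares are thus set in part by that choice and are no independent measure.

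**Figure D1:**
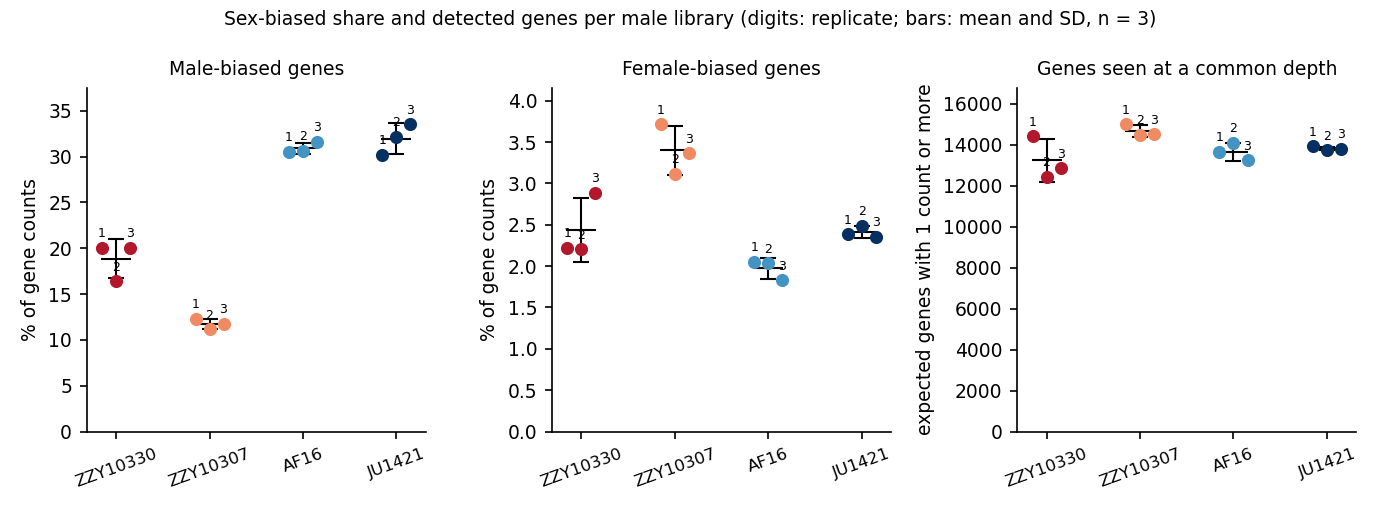
Male-biased share, female-biased share and number of detected genes in each male library, with strains on the horizontal axis and points numbered by replicate. Bars are the mean and SD of 3 libraries. The 3 ZZY10330 libraries lie between 16.4% and 20.1% male-biased counts, below all JU1421 libraries, while the ranges of the other panels overlap.

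Female-biased genes moved in both directions. Of 787 tested, 58 were higher in ZZY10330 (7.37%), 63 were lower (8.01%) and 666 did not pass, both shares being below those of all genes (12.6% and 16.1%). Only these 787 of the 1073 listed genes had enough counts in males to test. A test has less power at lower counts, and the shares are not matched for level. Their median log2 fold change was -0.23. Without ZZY10330 replicate 2, 64 were higher and 45 lower. Under total counts the median was 0.00, and with female-biased genes taken from JU1421 it was 0.27, so no direction is given for the class. They took 2.22%, 2.21% and 2.89% of gene counts in ZZY10330 and 2.38%, 2.49% and 2.36% in JU1421, and the ranges overlapped (difference 0.029 percentage points, exact two-sided permutation p = 1). Genes seen in the female only gave little signal in the sterile males. Of 123 genes at 10 CPM or more in the JU1421 female library with no count in JU1421 males, none reached 10 CPM in all ZZY10330 libraries, and 94 had no count there. The 123 genes summed to between 44.2 and 180 CPM per ZZY10330 library, to 140 to 174 CPM in ZZY10307 and to 262 to 313 CPM in AF16 males. In ZZY10307, 3 of them reached 10 CPM in every library and 80 had no count, and in AF16 males these were 1 and 53. The other 10781 genes, biased to neither sex, rose more often than they fell, with 1495 higher, 1115 lower and a median of 0.12.

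**Figure D2:**
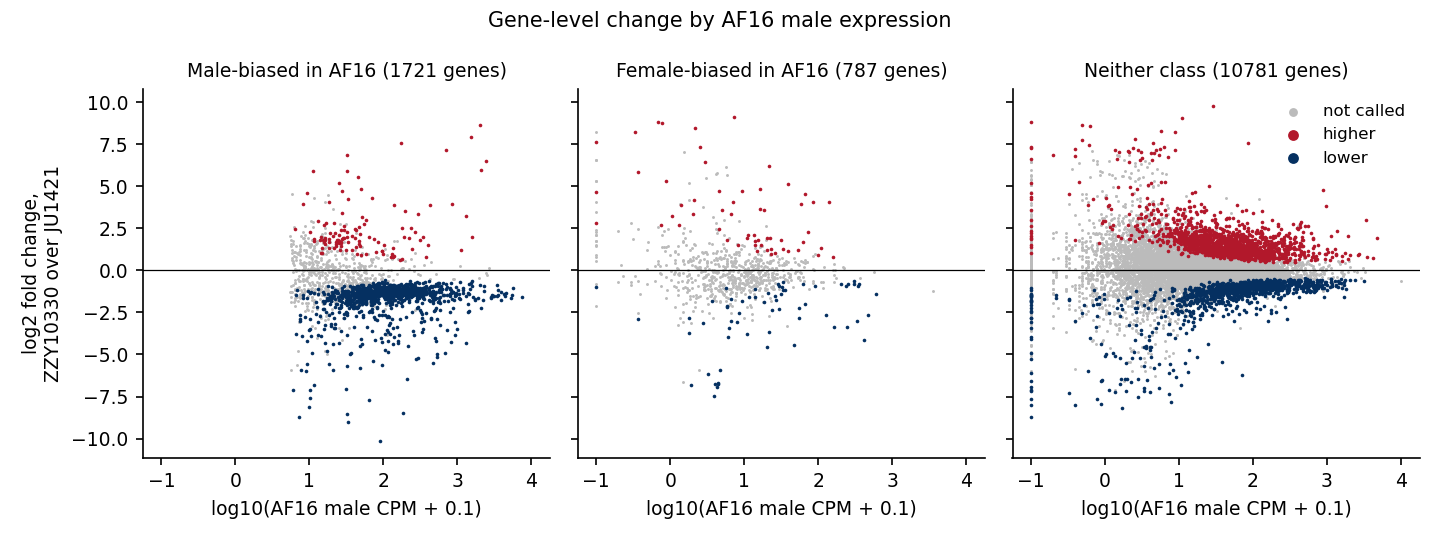
Each point is 1 tested gene, with its mean level in AF16 males on the horizontal axis (log10 of CPM + 0.1) and the log2 fold change of ZZY10330 over JU1421 on the vertical axis. Red genes passed as higher and blue genes as lower. Among 1721 male-biased genes the blue points form a band a little below -1, while genes of the other classes lie on both sides of 0.

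Male-biased genes were called lower most often where they are strongly expressed in fertile C. briggsae males. Genes were ordered by their mean level in AF16 males, a measure from libraries outside the comparison. Among male-biased genes, 21 of 169 at 1 to 10 CPM were lower in ZZY10330 (12.4%), 433 of 963 at 10 to 100 CPM (45.0%), 454 of 530 at 100 to 1000 CPM (85.7%) and 47 of 59 above 1000 CPM (79.7%). Higher genes in the same ranges were 3, 81, 26 and 7. The median log2 fold change was -0.50, -1.16, -1.30 and -1.37 in these 4 ranges, so the typical size of the fall differed little above 10 CPM. A test has less power at lower counts, and how far that sets the rise in the share called from range to range was not tested. Genes of neither class at matched levels did not show this one-sided pattern: of 1444 at 100 to 1000 CPM, 352 rose and 391 fell (median -0.09), and of 80 above 1000 CPM, 22 rose and 27 fell (median -0.15). At 10 to 100 CPM, 932 of 5319 such genes rose and 542 fell (median 0.10). Over all classes the median was 0.25 at 1 to 10 CPM, -0.04 at 10 to 100 CPM, -0.41 at 100 to 1000 CPM and -0.63 above 1000 CPM, and that of the 10 to 100 CPM range turned to 0.19 under total counts.

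**Figure D3:**
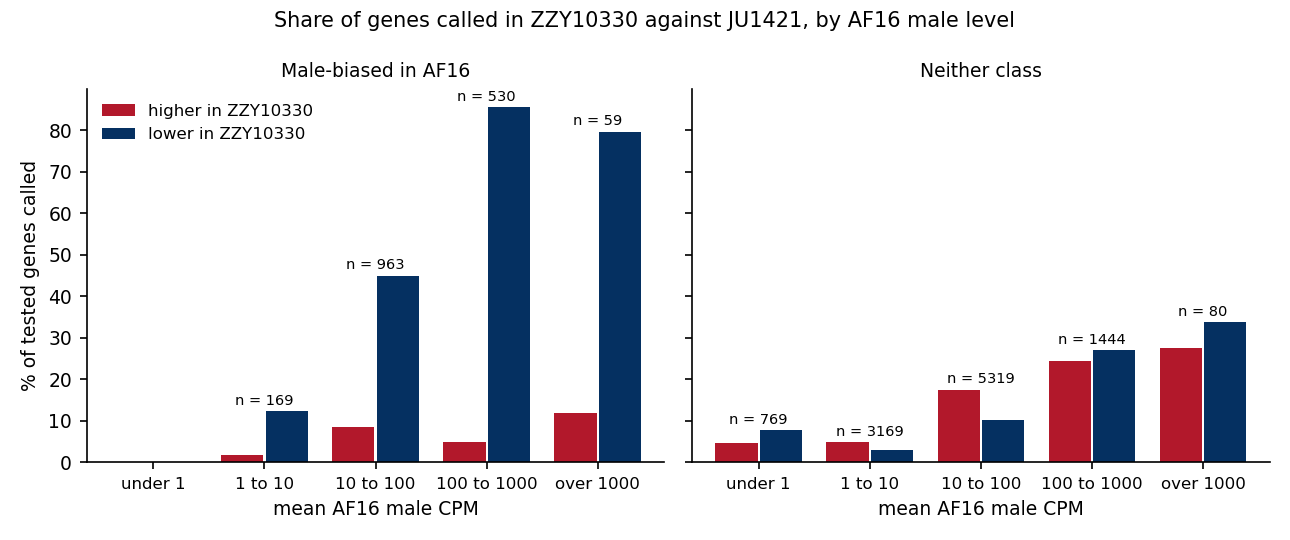
Percent of tested genes called higher (red) or lower (blue) in ZZY10330 against JU1421, by mean level in AF16 males, for male-biased genes and for genes of neither class, with the number tested above each pair of bars. The blue bar reaches 85.7% of 530 male-biased genes at 100 to 1000 CPM, against 27.1% of 1444 genes of neither class.

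The counts of ZZY10330 libraries were also spread over genes a little more evenly than those of JU1421. The largest single gene took 1.03% of gene counts on average in ZZY10330 and 1.41% in JU1421 (exact two-sided permutation p = 0.1). The 100 largest genes took 22.8% and 25.9% (exact two-sided permutation p = 0.1). In AF16 males these averages were 1.035% and 23.0%, close to ZZY10330, and in ZZY10307 they were 1.32% and 20.3%. A more even spread than in JU1421 was thus not particular to ZZY10330. Thinned to the total of the smallest male library, 2372653 counts, the libraries were expected to show 14420, 12429 and 12854 genes in ZZY10330, against 13919, 13736 and 13805 in JU1421. ZZY10330 replicate 1 thus showed more genes than any JU1421 library and replicates 2 and 3 fewer, and the difference of -586 was within the spread (exact two-sided permutation p = 0.4).

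Of single genes, 2 in each direction are described, those with the lowest adjusted p in their direction among well expressed, non-overlapping genes. All 4 were male-biased in AF16. WBGene00030260 had 2964, 3534 and 2463 CPM in ZZY10330, against 36.2, 31.9 and 29.3 CPM in JU1421. WBGene00030261 had 2700, 3186 and 2490 CPM in ZZY10330, against 5.83, 8.70 and 6.02 CPM in JU1421. Both were thus high in all 3 sterile libraries, while WBGene00030260 was moderate and WBGene00030261 low in every JU1421 library. The log2 fold changes were 6.52 (SE 0.23, 92.0-fold, edgeR adjusted p = 9.33e-14) and 8.66 (SE 0.36, 408-fold, edgeR adjusted p = 8.14e-13).

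Both genes were also high in C. briggsae males. WBGene00030260 averaged 2987 ± 536 CPM in ZZY10330, 35.2 ± 4.63 CPM in ZZY10307, 2423 ± 40.7 CPM in AF16 and 32.5 ± 3.50 CPM in JU1421 (SD, n = 3 each). WBGene00030261 averaged 2792 ± 357 CPM in ZZY10330, 13.4 ± 6.20 CPM in ZZY10307, 2052 ± 380 CPM in AF16 and 6.85 ± 1.61 CPM in JU1421. ZZY10330 did not pass against AF16 for either gene (edgeR adjusted p = 0.234 and 0.192), with differences of 0.30 and 0.44 on the log2 scale. Against ZZY10307 both passed, by 6.41 and 7.72 on the log2 scale (edgeR adjusted p = 1.07e-13 and 1.46e-12). In the AF16 female library they stood at 249.95 and 123.8 CPM, below the AF16 males, and in the JU1421 female library WBGene00030260 had no count and WBGene00030261 stood at 4.98 CPM.

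WBGene00025019 had 24.3, 25.6 and 24.5 CPM in ZZY10330, against 466, 552 and 449 CPM in JU1421. WBGene00039784 had 35.05, 31.9 and 29.8 CPM in ZZY10330, against 523, 579 and 654 CPM in JU1421. Every sterile library lay more than 10-fold below the lowest JU1421 library for both genes. The log2 fold changes were -4.30 (SE 0.25, 19.7-fold lower, edgeR adjusted p = 3.48e-10) and -4.18 (SE 0.25, 18.2-fold lower, edgeR adjusted p = 6.11e-10). Neither gene had a count in the JU1421 female library, and in the AF16 female library WBGene00025019 had none and WBGene00039784 had 1. ZZY10307 males were lower still, at 6.94 ± 3.30 and 5.75 ± 2.72 CPM, and ZZY10330 exceeded them by 1.87 and 2.49 on the log2 scale (edgeR adjusted p = 0.000145 and 1.13e-05). AF16 males stood at 1300.0 ± 141 CPM for WBGene00025019 and at 114 ± 14.5 CPM for WBGene00039784, on opposite sides of JU1421.

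**Figure D4:**
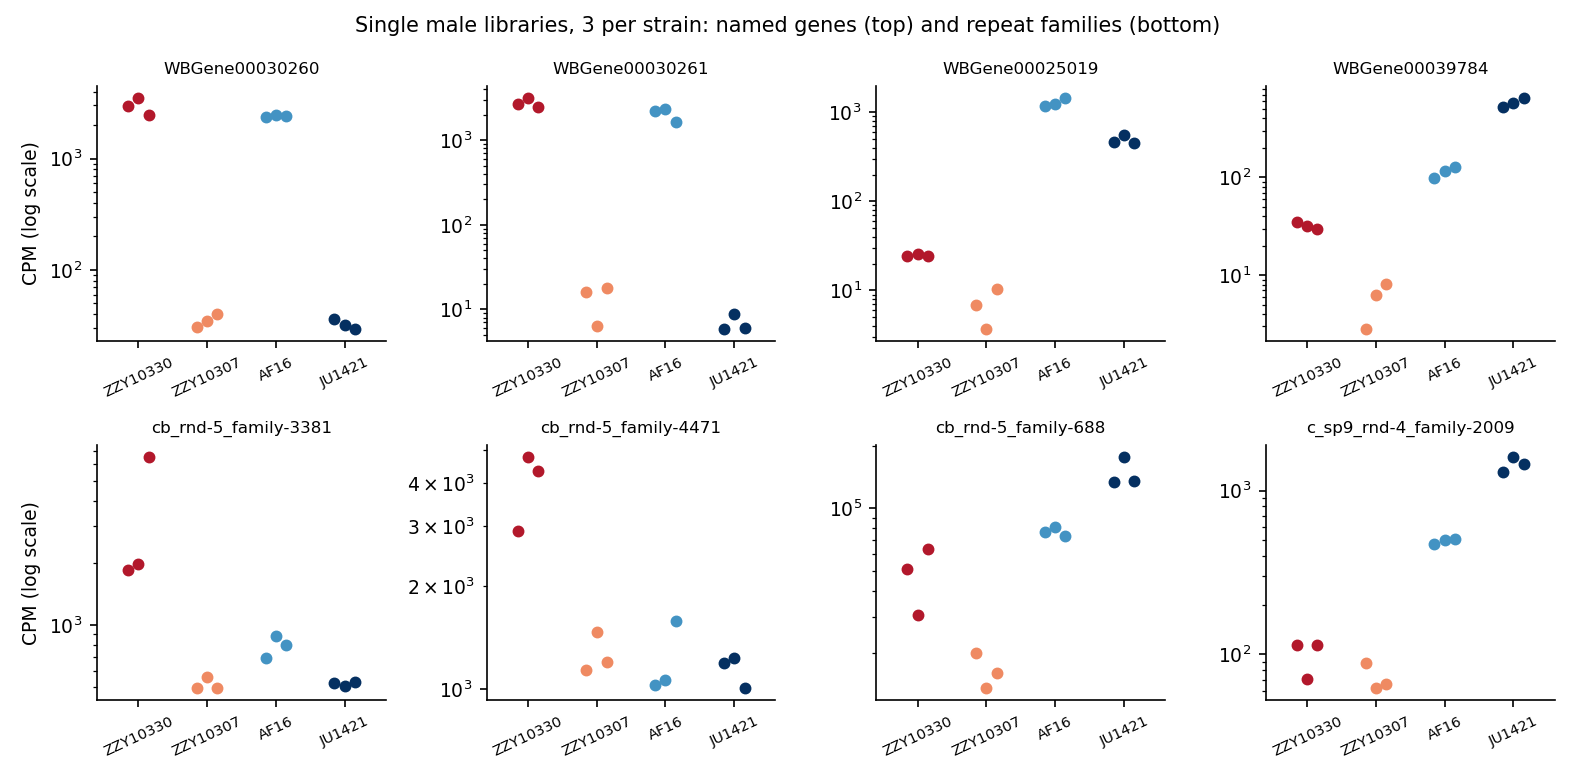
CPM on a log axis in each of 12 male libraries for 4 named genes (top) and 4 named repeat families (bottom), with strains on the horizontal axis and 1 point per library. WBGene00030260 and WBGene00030261 lie at 2463 to 3534 CPM in ZZY10330 and at 5.83 to 40.05 CPM in ZZY10307 and JU1421, while the other named genes lie low in both sterile strains.

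The introgressed segment raises the question of how far ZZY10330 males had counts for genes seen in C. briggsae males and not in C. nigoni males. As a description, 30 genes had at least 10 CPM in every AF16 male library and no count in any JU1421 male library. In ZZY10330, 18 of them had no count, 11 had some count below that level, and 1 reached it in all libraries. In ZZY10307 the numbers were 21, 8 and 1, and the gene at the level was the same one, WBGene00024230, picked out after its values were seen. It had 25.7, 37.6 and 47.7 CPM in ZZY10330, 23.0, 29.4 and 34.7 CPM in ZZY10307, 28.3, 37.6 and 20.1 CPM in AF16 and no count in JU1421. Not all of the 30 genes are silent in C. nigoni. In the JU1421 female library 22 had no count, 7 had some count below 10 CPM and 1 stood at 2642 CPM. The 30 genes are not placed inside or outside the segment, so these numbers do not measure its transcripts. In the reverse class, 63 genes had at least 10 CPM in every JU1421 male library and no count in AF16 males. All 63 had counts in ZZY10330, 22 of them at the level in every library, with a median of 12.4 CPM in ZZY10330, 9.07 CPM in ZZY10307 and 34.2 CPM in JU1421. Because JU1421 was part of these rules, nothing was tested against it here.

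Genes with counts in every library of 1 strain and none in the other were few at this level. Besides WBGene00024230, WBGene00035895 had no JU1421 count and at least 10 CPM in every ZZY10330 library, at 22.4, 30.2 and 14.9 CPM, with 23.4, 34.4 and 30.5 CPM in ZZY10307 and 8.29, 10.6 and 13.8 CPM in AF16. In the other direction 3 genes had no ZZY10330 count. WBGene00034383 stood at 28.3, 57.2 and 56.2 CPM in JU1421, WBGene00029391 at 17.5, 24.04 and 21.7 CPM, and WBGene00088906 at 11.7, 10.4 and 10.4 CPM. WBGene00034383 and WBGene00029391 are male-biased in AF16 and stood at 86.3 to 95.9 and 24.1 to 45.4 CPM in its males, while WBGene00088906 had at most 0.880 CPM there. All were low in ZZY10307 too. They stood there at 1.87, 1.05 and 0 CPM for WBGene00034383 and at 6.85, 1.58 and 1.77 CPM for WBGene00029391. WBGene00088906 had 0, 0.525 and 0 CPM in ZZY10307. These 5 genes were chosen after their values were seen.

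A direct comparison of the sterile strains showed where ZZY10330 differed from ZZY10307. The contrast itself uses no JU1421 or AF16 library, though all strains share the estimate of spread. Of 13289 genes, 1131 differed (8.51%), 674 higher (5.07%) and 457 lower (3.44%) in ZZY10330, by edgeR at an adjusted p below 0.05. Male-biased genes were 266 of those higher and 16 of those lower, and the median of the class was 0.42 (log2). Female-biased genes were 23 of those higher and 54 of those lower, and their median was -0.52. The counts leaned on ZZY10307 replicate 3, without which 368 were higher and 214 lower, and on replicate 2, without which these were 420 and 242. Without ZZY10307 replicate 1, 254 were lower. Without ZZY10330 replicate 2, 754 were higher and 367 lower. Under total counts the split turned to 502 higher and 746 lower.

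Genes that differ between the parents were then followed in this contrast, which the choice of genes did not use. These classes were added after the data had been seen. Their genes passed between AF16 and JU1421 in edgeR, at an adjusted p below 0.05, and differed by 4-fold or more. Of 392 genes at least 4-fold higher in AF16 than in JU1421, 73 were higher in ZZY10330 than in ZZY10307 (18.6%) and 9 were lower (2.30%), against 5.07% and 3.44% of all genes. Male-biased genes, 12.95% of those tested, were 172 of the 392 and 41 of the 73. As a class they were higher in this contrast, as given above, with 15.5% of them called higher. The shares of all genes are thus not matched to the 392 by sex bias. Of 687 genes at least 4-fold higher in JU1421 than in AF16, 70 were higher (10.2%) and 44 lower (6.40%). Set beside the parents' mean levels, 107 of the 392 genes stood within 2-fold of AF16 in ZZY10330 and 74 in ZZY10307, while 110 and 124 stood within 2-fold of JU1421. Of the 73 genes, 25 lay within 2-fold of AF16, and 11 of those reached 100 CPM or more in ZZY10330, WBGene00030260 and WBGene00030261 among them. Without ZZY10307 replicate 3, 48 of the 392 genes were higher and 5 lower, and without ZZY10330 replicate 2 these were 64 and 5.

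Of repeat families, 696 had enough counts to test, 276 of them named with the prefix cb and 420 with c_sp9, prefixes that the files do not explain. Only 38 passed, 5.46% of those tested, with 14 higher (2.01%) and 24 lower (3.45%) in ZZY10330. Values of the 3 and 3 libraries did not overlap in 30 of the 38, against 14.7% of all tested. Of the cb families tested, 10 were higher (3.62%) and 9 lower (3.26%), and of the c_sp9 families 4 were higher (0.952%) and 15 lower (3.57%). The shares that were lower were thus close, and the difference between prefixes was not tested. Without ZZY10330 replicate 2, 13 were higher and 17 lower. The number higher leaned on each JU1421 library, as it was 7, 8 and 6 without replicate 1, 2 and 3, and with a replicate block in the fit it was 6. In the direct comparison with ZZY10307, 18 families differed (2.59%), 9 higher (1.29%) and 9 lower (1.29%) in ZZY10330, and 13 of the 38 families above were among them. The files give no class of element for any family.

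**Figure D5:**
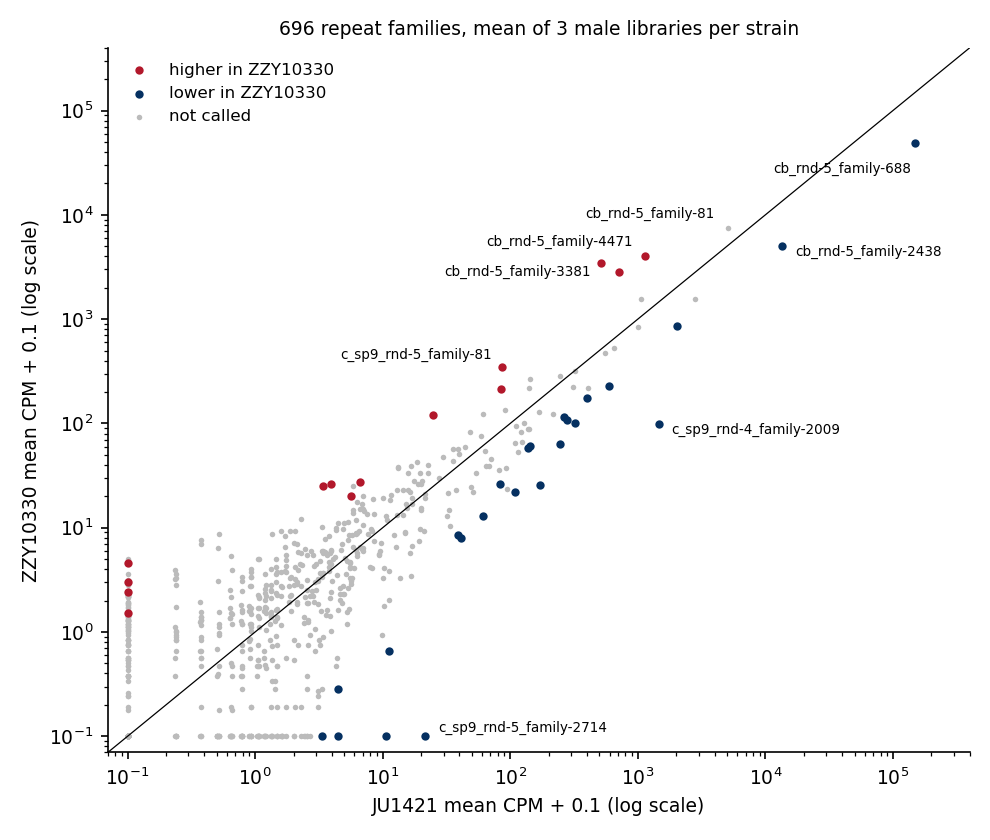
Each point is 1 of 696 repeat families, with the mean CPM + 0.1 in JU1421 on the horizontal axis and in ZZY10330 on the vertical axis, both on log scales. Red families passed as higher, blue families as lower, and the line marks equal levels. The most abundant family, cb_rnd-5_family-688, lies below the line, and cb_rnd-5_family-3381 and cb_rnd-5_family-4471 lie above it.

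The fall in the sum of repeat counts was about the size of that in the most abundant family alone. Other families moved in both directions. Summed over families, repeat counts, scaled as CPM of raw gene totals, came to 86778 ± 19230 in ZZY10330 and 165300 ± 16050 in JU1421 (SD, n = 3 each; exact two-sided permutation p = 0.1). The family cb_rnd-5_family-688 alone came to 49531 ± 14580 and 130530 ± 13810 on this scale. It made up 60.9%, 49.8% and 58.5% of repeat counts in the ZZY10330 libraries, against 77.3%, 79.7% and 79.8% in JU1421, with no overlap. All other families together came to 37247 ± 5606 in ZZY10330 and 34768 ± 3141 in JU1421, which differed by less than the spread (exact two-sided permutation p = 0.7). The c_sp9 families summed to 11895 ± 821 in ZZY10330 and 14338 ± 1034 in JU1421 (exact two-sided permutation p = 0.1). With cb_rnd-5_family-688 left out, the cb families summed to 25351 ± 4785 in ZZY10330 and 20430 ± 2222 in JU1421 (exact two-sided permutation p = 0.2).

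Of the families that fell, cb_rnd-5_family-688 had 50997, 30448 and 63974 CPM in ZZY10330, against 134600, 177240 and 136240 CPM in JU1421, now with TMM-scaled library sizes. Every JU1421 library was more than 2-fold above every ZZY10330 library. The log2 fold change was -1.62 (SE 0.23, 3.08-fold lower, edgeR adjusted p = 1.11e-10). AF16 males averaged 77180 ± 3534 CPM and ZZY10307 males 16488 ± 3287 CPM, so ZZY10330 lay between the other sterile strain and both parents, and it passed against ZZY10307 by 1.56 on the log2 scale (edgeR adjusted p = 2.13e-09). The second most abundant family in JU1421, cb_rnd-5_family-2438, ran alongside it, with 5136, 3126 and 6913 CPM in ZZY10330, against 12119, 16031 and 12646 CPM in JU1421. Its log2 fold change was -1.43 (SE 0.24, edgeR adjusted p = 2.15e-07). In both families replicate 2 was the lowest ZZY10330 library and replicate 3 the highest. Counts of cb_rnd-5_family-688 were 9.25 to 9.93 times those of cb_rnd-5_family-2438 in ZZY10330 libraries, 7.32 to 8.84 times in ZZY10307, 9.52 to 11.5 times in AF16 and 10.8 to 11.1 times in JU1421. Whether reads of one family were also assigned to the other was not tested.

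The lowest adjusted p of any family was that of c_sp9_rnd-4_family-2009, with 114, 70.7 and 114 CPM in ZZY10330, against 1301, 1607 and 1455 CPM in JU1421. All sterile libraries lay more than 10-fold below the JU1421 libraries (log2 fold change -3.87, SE 0.31, 14.6-fold lower, edgeR adjusted p = 9.21e-33). It was also low in ZZY10307, at 72.3 ± 14.4 CPM (difference 0.46 on the log2 scale, edgeR adjusted p = 0.505), while AF16 males stood at 493 ± 16.3 CPM. The family c_sp9_rnd-5_family-9330 had 35.3, 20.5 and 20.6 CPM in ZZY10330, against 138, 218 and 158 CPM in JU1421 (log2 fold change -2.75, edgeR adjusted p = 1.97e-12). It was lower still in ZZY10307, at 7.54 ± 3.04 CPM. The family c_sp9_rnd-5_family-2851 had 59.1, 50.2 and 81.8 CPM in ZZY10330, against 210, 332 and 189 CPM in JU1421 (log2 fold change -1.94, edgeR adjusted p = 1.83e-07). In ZZY10307 that family did not follow, with 491, 118.7 and 271 CPM.

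Some families had no count at all in ZZY10330. The family c_sp9_rnd-5_family-2714 had no count in any ZZY10330 library and 14.99, 31.9 and 17.7 CPM in JU1421, at least 72.1-fold lower against a floor of 3 counts over the group (edgeR adjusted p = 9.52e-07). It was present in ZZY10307, at 8.17 ± 2.81 CPM, and in AF16, at 2.49 ± 1.57 CPM. The family c_sp9_rnd-5_family-2037 had no ZZY10330 count and 7.91, 12.4 and 11.2 CPM in JU1421, at least 35.3-fold lower (edgeR adjusted p = 0.00392). The family cb_rnd-4_family-510 also had none, against 2.08, 3.73 and 7.22 CPM in JU1421, at least 14.6-fold lower (edgeR adjusted p = 0.0193). Its call was lost without ZZY10330 replicate 1, ZZY10330 replicate 2 or JU1421 replicate 3 (edgeR adjusted p = 0.0656, 0.0516 and 0.111), with a replicate block (edgeR adjusted p = 0.0583) and with 6 libraries only (edgeR adjusted p = 0.136).

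Families that rose stood at different levels in the other strains. The family cb_rnd-5_family-3381 had 1837, 1978 and 6523 CPM in ZZY10330, against 520, 504 and 530 CPM in JU1421 (log2 fold change 2.73, SE 0.28, edgeR adjusted p = 1.98e-19). All sterile libraries lay above the JU1421 ones, but replicate 3 stood far above the others, and without it the log2 fold change was 1.88. The SE rests on a spread shared over strains, while the values spread far more in ZZY10330 (3446 ± 2666 CPM) than in JU1421 (518 ± 12.9 CPM). Among families of at least 50 counts the edgeR adjusted p was 9.03e-07. By the Wald test of DESeq2 the adjusted p was 9.38e-12. ZZY10307 and AF16 averaged 515 ± 36.5 and 791 ± 97.2 CPM, below every ZZY10330 library. The family cb_rnd-5_family-4471 had 2912, 4786 and 4364 CPM in ZZY10330, against 1191, 1230 and 1005 CPM in JU1421 (log2 fold change 1.82, edgeR adjusted p = 2.56e-10). Here too ZZY10307 and AF16, at 1271 ± 178 and 1225 ± 308 CPM, lay near JU1421, and ZZY10330 exceeded ZZY10307 by 1.66 on the log2 scale (edgeR adjusted p = 1.49e-08).

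The family cb_rnd-5_family-4518 had 2577, 2687 and 3149 CPM in ZZY10330, against 874, 875 and 402 CPM in JU1421 (log2 fold change 1.97, edgeR adjusted p = 4.15e-12). For it ZZY10307 and AF16 were also high, at 2018 ± 285 and 3240 ± 294 CPM. The family c_sp9_rnd-5_family-81 had 291, 364 and 385 CPM in ZZY10330, against 110, 80.4 and 69.0 CPM in JU1421 (log2 fold change 2.00, edgeR adjusted p = 2.36e-07), with 2.86 ± 1.72 CPM in AF16. The family c_sp9_rnd-5_family-2147 had 139, 137 and 83.2 CPM in ZZY10330, against 25.4, 18.7 and 29.7 CPM in JU1421 (log2 fold change 2.28, edgeR adjusted p = 1.99e-06), with 108 ± 20.3 CPM in ZZY10307. ZZY10330 did not pass against ZZY10307 for cb_rnd-5_family-4518 or c_sp9_rnd-5_family-2147 (edgeR adjusted p = 0.45 and 1), and AF16 was low for both c_sp9 families.

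The remaining named families that rose rest on few libraries. The family cb_rnd-5_family-1231 had 23.7, 10.6 and 47.3 CPM in ZZY10330, against 6.66, 12.8 and 0 CPM in JU1421, which overlap (edgeR adjusted p = 0.0129, and 0.174 without ZZY10330 replicate 3, 0.0872 without JU1421 replicate 1 and 0.267 without JU1421 replicate 3). The family cb_rnd-5_family-96 had 56 counts in ZZY10330 replicate 2 and none in the other ZZY10330 or any JU1421 library, and cb_rnd-5_family-994 had 29 counts in that library only. The family cb_rnd-4_family-1409 had 3 and 18 counts in ZZY10330 replicates 1 and 3. These 3 families were called (edgeR adjusted p = 0.0193, 0.0367 and 0.0393), at least 10.97-, 5.68- and 7.07-fold higher against the floor. Each of these calls was lost without any one of the JU1421 libraries, and cb_rnd-5_family-96 and cb_rnd-5_family-994 had no ZZY10330 count left without replicate 2. With a replicate block, cb_rnd-5_family-1231, cb_rnd-5_family-96, cb_rnd-5_family-994 and cb_rnd-4_family-1409 did not pass either (edgeR adjusted p = 0.0731, 0.276, 0.309 and 0.166), nor among families of at least 50 counts (edgeR adjusted p = 0.122, 0.0550, 0.0702 and 0.0684). With 6 libraries only, cb_rnd-5_family-96, cb_rnd-5_family-994 and cb_rnd-4_family-1409 did not pass (edgeR adjusted p = 0.129, 0.304 and 0.26). By DESeq2 cb_rnd-5_family-96 and cb_rnd-5_family-994 did not (adjusted p = 0.434 and 0.339). The families cb_rnd-5_family-96, cb_rnd-5_family-994 and cb_rnd-4_family-1409 had counts in every AF16 male library, at 13.4 ± 2.26, 19.7 ± 13.6 and 15.5 ± 6.89 CPM. The third most abundant family, cb_rnd-5_family-81, had 7403, 5997 and 9081 CPM in ZZY10330, against 5579, 6231 and 3358 CPM in JU1421, and did not pass (log2 fold change 0.57, edgeR adjusted p = 0.177). It passed without ZZY10330 replicate 2 (edgeR adjusted p = 0.0295) and under total counts (log2 fold change 0.80, edgeR adjusted p = 0.00524). Of the called families not named here, 5 were higher, by 1.33 to 5.09 on the log2 scale, and 16 lower, by -6.31 to -1.16.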

How the data were processed

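Raw counts were deposited by the authors, per gene for 14 libraries and per repeat family for the 12 male ones. Per the submitters' processing notes, Trimmomatic and edgeR were used, and per the labels' protocols, libraries came from the stranded TruSeq kit. The sources used here name no aligner, counting program, build or annotation. Genes that overlap or have near-identical copies cannot be told apart.

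All 12 male libraries entered 1 fit per table in edgeR 4.0.16 (R 4.3.3, limma 3.58.1), with TMM factors, filterByExpr (minimum count 10), a term for strain, 8 residual degrees of freedom and the robust quasi-likelihood test. Calls have a Benjamini-Hochberg adjusted p below 0.05. Each SE is the log2 fold change divided by the square root of its F statistic, and so rests on the shared spread. Repeat families needed 10 counts over these libraries and took library sizes and factors from the genes. CPM of single features use TMM-scaled sizes in male libraries and raw gene totals in female ones, while repeat sums and shares use raw gene totals. The sorting by sex used TMM factors of the male and female libraries together. Sex-biased genes had a ratio of 4 after adding a prior count of 2, reached 5 CPM in the higher sex, and had all male libraries on 1 side. Folds against a strain without counts are lower bounds set by 3 counts over the strain, and cover counting error only. The scripts were tested on simulated data. Chi-square per degree of freedom between replicates was 6.37 to 24.1, above sampling noise, so none was treated as a duplicate.

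Named genes are the called, non-overlapping genes above 100 CPM in the higher strain with the lowest adjusted p, 2 per direction. Named families are, per direction, the 6 with the lowest adjusted p and the 3 of largest fold with 20 counts or more, plus the 3 most abundant in JU1421. Members and lists were chosen with earlier results of these data known. Lists by function, chromosomes, the introgressed segment and cell type markers were not analysed here, as identifiers are not paired with names or positions in the files. Alternatives were size factors and the Wald test of DESeq2 1.42.0, total counts, other filters and bias ratios, 6 libraries only, a replicate block and leaving out each library.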

Additional observations from a re-analysis of the deposited data

Results flagged for a closer look

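The difference between the sterile strains, tested as a direct contrast of ZZY10330 with ZZY10307 in the fit over all male libraries (edgeR), drew attention in 1131 genes and in 18 repeat families. All 4 named genes were among them. Their differences on the log2 scale, ZZY10330 minus ZZY10307, were 6.41 for WBGene00030260, 7.72 for WBGene00030261, 1.87 for WBGene00025019 and 2.49 for WBGene00039784. The last 2 were low in both sterile strains, so for them the contrast separates a low level from a lower one.

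Of the named repeat families that passed this contrast, 7 were higher in ZZY10330. On the log2 scale cb_rnd-5_family-3381 was higher by 2.74 (1.88 without ZZY10330 replicate 3), cb_rnd-5_family-4471 by 1.66, cb_rnd-5_family-688 by 1.56 and cb_rnd-5_family-2438 by 1.30, and of the less abundant ones c_sp9_rnd-5_family-9330 by 1.76 and c_sp9_rnd-5_family-81 by 1.14. The family cb_rnd-5_family-96 differed by 6.80, a fitted value that rests on 1 ZZY10330 library and is no bound. Lower were c_sp9_rnd-5_family-2851, at -2.21, and c_sp9_rnd-5_family-2714 and c_sp9_rnd-5_family-2037, at -7.62 and -6.68, which had no count in ZZY10330 and whose fitted values are likewise no bounds. The call of c_sp9_rnd-5_family-2037 was lost without any 1 of the 6 libraries of these strains, and that of c_sp9_rnd-5_family-81 without any 1 of 5 of them. With a replicate block c_sp9_rnd-5_family-2037, c_sp9_rnd-5_family-81 and cb_rnd-5_family-96 did not pass (edgeR adjusted p = 0.0946, 0.0659 and 0.352). The family c_sp9_rnd-5_family-81 did not pass under total counts either (edgeR adjusted p = 0.0615), nor cb_rnd-5_family-96 among families of at least 50 counts (edgeR adjusted p = 0.0652).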

How the results depend on the processing

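Total counts in place of TMM factors turned the female-biased median to 0.00039 and that of genes at 10 to 100 CPM in AF16 males to 0.19, moved those under 1, at 1 to 10 and at 100 to 1000 CPM to 0.24, 0.49 and -0.18, and gave 746 genes lower than in ZZY10307. With sex-biased sets from JU1421, whose males are controls here, the female-biased median turned to 0.27, 146 rose and 29 fell, and 72 male-biased genes rose. A sex-bias ratio of 8 had 40 male-biased genes rise, and 24 female-biased genes rise and 24 fall, their median being -0.042. Without a filter on low counts that median was -0.049. With 6 libraries only, 36 female-biased genes were lower. Replicate numbers did not pair the samples (correlations of deviations between same numbers 0.021, -0.019 and -0.044): with a replicate block, 1567 genes were higher and 2023 lower, 6 and 18 families, and of the genes high in AF16, 5 were lower than in ZZY10307. That last number was 16 without the filter. With parents 8-fold apart, 42 genes high in AF16 were higher than in ZZY10307 and 29 genes high in JU1421 lower. With families of at least 50 counts, 9 were higher.

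The difference in female-biased share turned to -0.015 without the 10 largest genes, that in all other repeat families to -3450 with TMM-scaled gene counts, and that in detected genes to 283 at 5 or more expected counts. At levels of 5 and 20 CPM, genes in AF16 and not JU1421 males were 63 and 16, with 3 at the level in ZZY10330 at 5 CPM. Genes in JU1421 and not AF16 males were 36 at 20 CPM, with 43 and 9 at the level in ZZY10330. Genes on were 9 and 1, and genes off 8 and 1.

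Leaving out single libraries gave 1293 to 1599 genes higher and 1676 to 2158 lower than in JU1421, 37 to 80 female-biased genes lower (37 without JU1421 replicate 2), 6 to 15 families higher and 16 to 27 lower. Against ZZY10307 it gave 368 to 754 genes higher and 214 to 553 lower, and 3 to 10 families lower (4 and 3 without ZZY10307 replicates 1 and 3). Of the genes high in AF16, 48 to 66 were higher and 3 to 10 lower (3, 5 and 5 without ZZY10307 replicates 1, 2 and 3, and 5 without ZZY10330 replicate 2), and of those high in JU1421, 24 to 38 were lower (27 and 24 without ZZY10307 replicates 1 and 3). The difference in female-biased share ran from -0.194 to 0.146 and that in the other repeat families from -748 to 4307, each negative only without ZZY10330 replicate 3. The named genes and families, and the median of all genes, gave 568 values when re-run under the alternatives, against JU1421 and ZZY10307. Of these, 508 kept their direction and side of the threshold or, for the median, stayed close. Most of these features were chosen for a low adjusted p or a large fold, so the number does not speak for other features. Against ZZY10307, leaving out single libraries gave -1.72 (without ZZY10330 replicate 2) to 5.84 for cb_rnd-5_family-994, and -0.16 to 0.89 for cb_rnd-5_family-1231 and -1.55 to 2.33 for cb_rnd-4_family-1409 (both lowest without ZZY10330 replicate 3). The cause of these changes was not tested. Depth limits genes and families with few counts, where an absence may be sampling.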

Other observations

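Among the genes at least 4-fold higher in AF16 than in JU1421 and higher in ZZY10330 than in ZZY10307, 14 carried consecutive WormBase identifiers, in 5 runs. These were chosen after their values were seen, and the identifiers say nothing here about position. How often tested genes in general fall in such runs was not counted, so these numbers have no background to be read against. The named genes WBGene00030260 and WBGene00030261 fall in a run of 4. WBGene00030259 averaged 1874 ± 278 CPM in ZZY10330, 27.4 ± 4.53 CPM in ZZY10307, 2086 ± 41.0 CPM in AF16 and 29.6 ± 8.77 CPM in JU1421 (SD, n = 3 each). WBGene00030262 averaged 924 ± 237 CPM in ZZY10330, 1.52 ± 2.20 CPM in ZZY10307, 693 ± 68.5 CPM in AF16 and 6.32 ± 2.59 CPM in JU1421. Neither passed against AF16 (edgeR adjusted p = 0.624 and 0.406). In a second run the ZZY10330 level lay between the parents. WBGene00034394 averaged 148.7 ± 54.9 CPM in ZZY10330, 1.72 ± 1.65 CPM in ZZY10307, 972 ± 158 CPM in AF16 and 10.2 ± 1.75 CPM in JU1421. WBGene00034397 averaged 186 ± 45.1 CPM in ZZY10330, 4.62 ± 2.83 CPM in ZZY10307, 843 ± 11.5 CPM in AF16 and 11.8 ± 5.54 CPM in JU1421. In another run, of 2 genes that are female-biased in AF16, ZZY10330 lay above both parents. WBGene00038448 averaged 329 ± 173 CPM in ZZY10330, 26.7 ± 12.8 CPM in ZZY10307, 66.6 ± 36.5 CPM in AF16 and 13.8 ± 4.72 CPM in JU1421. WBGene00038449 averaged 439 ± 282 CPM in ZZY10330, 46.0 ± 10.4 CPM in ZZY10307, 142 ± 48.9 CPM in AF16 and 25.8 ± 12.6 CPM in JU1421. Both passed against AF16 (edgeR adjusted p = 0.00292 and 0.0122), with a wide spread among the ZZY10330 libraries. The other 2 runs hold 2 genes each, at 40.4 to 82.6 CPM in ZZY10330, 0.888 to 17.6 CPM in ZZY10307, 70.4 to 139 CPM in AF16 and 2.77 to 16.9 CPM in JU1421.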
